A study of Drosophila melanogaster with 4 samples.

Results

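The genes described here are the 78 protein-coding genes of the fly genome that were silent in control ovaries and expressed in ovaries of wh7 mutants. A gene was counted as silent when both control libraries held at most 0.5 FPKM (a read level scaled for transcript length and for the number of mapped reads in the library) and as expressed when both wh7 libraries held at least 3 FPKM. The rule took 78 of the 13834 protein-coding genes measured (0.564%), and 78 of the 6066 that were silent in both controls (1.29%). Since the rule itself uses the wh7 and control levels, those levels are given as a description of the genes and no test is attached to them.

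RNA was sequenced from ovaries of adult Drosophila melanogaster aged 7 days and kept at 25 °C, in 2 wh7 libraries and 2 control libraries. The wh7 flies carry a mutation of the gene wuho, in the w1118 background. The controls are w1118 flies, the standard white-eyed laboratory strain, labelled wild type. The sources used here do not give the number of ovaries in a library, and nothing says that libraries 1 and 2 of a genotype came from separate groups of flies, so a p-value measures only the spread between these libraries.

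Wuho, built of WD repeats, corresponds to mammalian WDR4 and is known for its role in fly fertility and in the germline of the ovary. An ovary is a bundle of egg-producing strings wrapped in a muscle sheath. Each string begins with germline stem cells in a niche of terminal filament, cap and escort cells, continues with egg chambers in which nurse cells supply RNA to the oocyte, and is lined by somatic follicle cells. Blood cells, fat body, nerve ends and pieces of the genital ducts can come along in a dissection. Because nurse cells and follicle cells supply most of the RNA, a gene used in a few other cells can fall below 0.5 FPKM in a whole ovary.

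The level of the mutated gene went with the labels. The level of wuho was 0.832 and 0.646 FPKM in the wh7 libraries, against 24.7 and 25.4 FPKM in the controls, so wh7 kept 2.95% of the control level (log2 change -3.91 ± 0.15 SE, adjusted p = 0.00245 by limma over all genes). Across the whole table limma called 3403 of 8580 tested genes changed (39.7%), 1820 higher in wh7 (21.2%) and 1583 lower (18.4%). That split depends on the scaling, as 71.3% of calls were higher after median ratio scaling and 44.8% after quantile normalization, against 53.5% here. No read counts are given, but the steps between low values place 1 FPKM in a transcript of 1 kb at 20.0 and 19.3 reads in the wh7 libraries and 19.9 and 19.2 reads in the controls, so the libraries were of like depth. The threshold of 3 FPKM then lies near 60.1 reads per kb in wh7 1 and that of 0.5 FPKM near 9.96 reads per kb in control 1.

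In the values as deposited, the rule took far more genes in this direction than in the other. When the same rule was turned round, 5 genes were silent in both wh7 libraries and held at least 3 FPKM in both controls (CG16957, CG13032, Sdic3, CG30059 and CG43954). The highest of these in the controls was CG43954, at 0 and 0.00142 FPKM in the wh7 libraries, against 15.2 and 17.9 FPKM in the controls. Of the genes silent in both controls, 4770 (78.6%) also stayed at or below 0.5 FPKM in both wh7 libraries. Going up in level, 840 control-silent genes reached 0.5 FPKM in both wh7 libraries, 420 reached 1 FPKM, 175 reached 2 FPKM, 31 reached 5 FPKM and 11 reached 10 FPKM. In the other direction 15 genes silent in wh7 reached 0.5 FPKM in both controls and 1 gene reached 10 FPKM. The number of genes is therefore a property of the thresholds, with more of them just below 3 FPKM than above it.

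**Figure D1:**
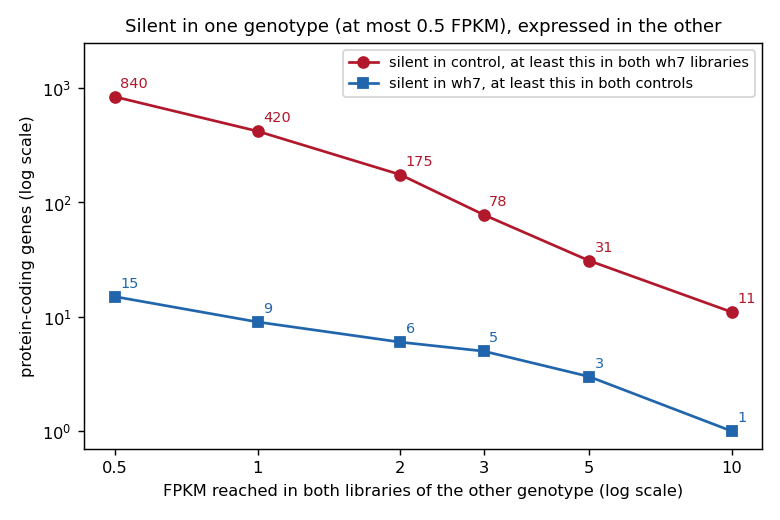
Number of protein-coding genes (y axis, log scale) that were at or below 0.5 FPKM in both libraries of one genotype and reached the FPKM on the x axis (log scale) in both libraries of the other. The red line, genes silent in control, runs from 840 to 11 genes and lies above the blue line, genes silent in wh7, at each of the 6 levels plotted.

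Under median ratio scaling the rule took 97 genes and the reversed rule 5, so the difference in direction stayed. Quantile normalization, which gives all 4 libraries the same distribution of values, changed this picture. After it the rule took 11 genes, all of them among the 78, and the reversed rule also took 11. The median of the 78 genes was then 3.87 and 4.24 FPKM in the wh7 libraries, against 0.668 and 0.567 FPKM in the controls, so that 53 of them passed 0.5 FPKM in a control and 38 fell below 3 FPKM in a wh7 library. All 78 still had both wh7 libraries above both controls, which the rule fixes before scaling and which held for 35% of tested protein-coding genes as deposited. The 11 genes kept under this scaling were Tsf1, Syt7, p24-2, CG15293, CG18278, CG13905, CG7900, CG3397, CG32581, CG34331 and CG34434. Protein-coding genes listed at 0 numbered 2301 and 2388 in the wh7 libraries, against 4008 and 3845 in the controls; whether this difference bears on the drop to 11 genes was not tested. Whether fewer RNAs per cell or fewer cells of a type stood behind a low value cannot be told apart in RNA from whole ovaries.

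Most of the 78 genes were expressed at a low level in wh7. In wh7 1 they ran from 3.01 to 73.9 FPKM with a median of 5.19, and in wh7 2 from 3.05 to 34.3 FPKM with a median of 6.29. The control values ran from 0 to 0.495 FPKM (median 0.214) in control 1 and from 0 to 0.494 FPKM (median 0.233) in control 2. The mean wh7 level was at least 10 FPKM for 16 genes, between 5 and 10 FPKM for 33 and under 5 FPKM for 29. For 20 genes with a single annotated transcript of 600 to 3000 bases the values could be turned into approximate reads. They held 44.1 to 404 reads in wh7 1 (median 130) and 44.0 to 446 in wh7 2 (median 152), against 0 to 14.1 reads in control 1 (median 3.45) and 0 to 12.0 in control 2 (median 3.05).

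For most of the genes silence in control was not a complete absence of reads. Above 0 in both controls were 58 of the 78 genes, 15 were listed at 0 in one control, and 5 were listed at 0 in both (p24-2, CG13905, CG31477, TfIIA-S-2 and CG1092). For the 73 genes with a control value the ratio of mean wh7 to mean control level ran from 9.52 to 642 with a median of 32.5. The lowest ratio was that of CG5281 and the highest that of CG32581, whose controls were listed at 0 and 0.0373 FPKM, so the size of the highest ratio rests on a few reads. A single read in 1 kb was worth about 0.0502 FPKM in control 1, so the high ratios carry little precision.

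**Figure D2:**
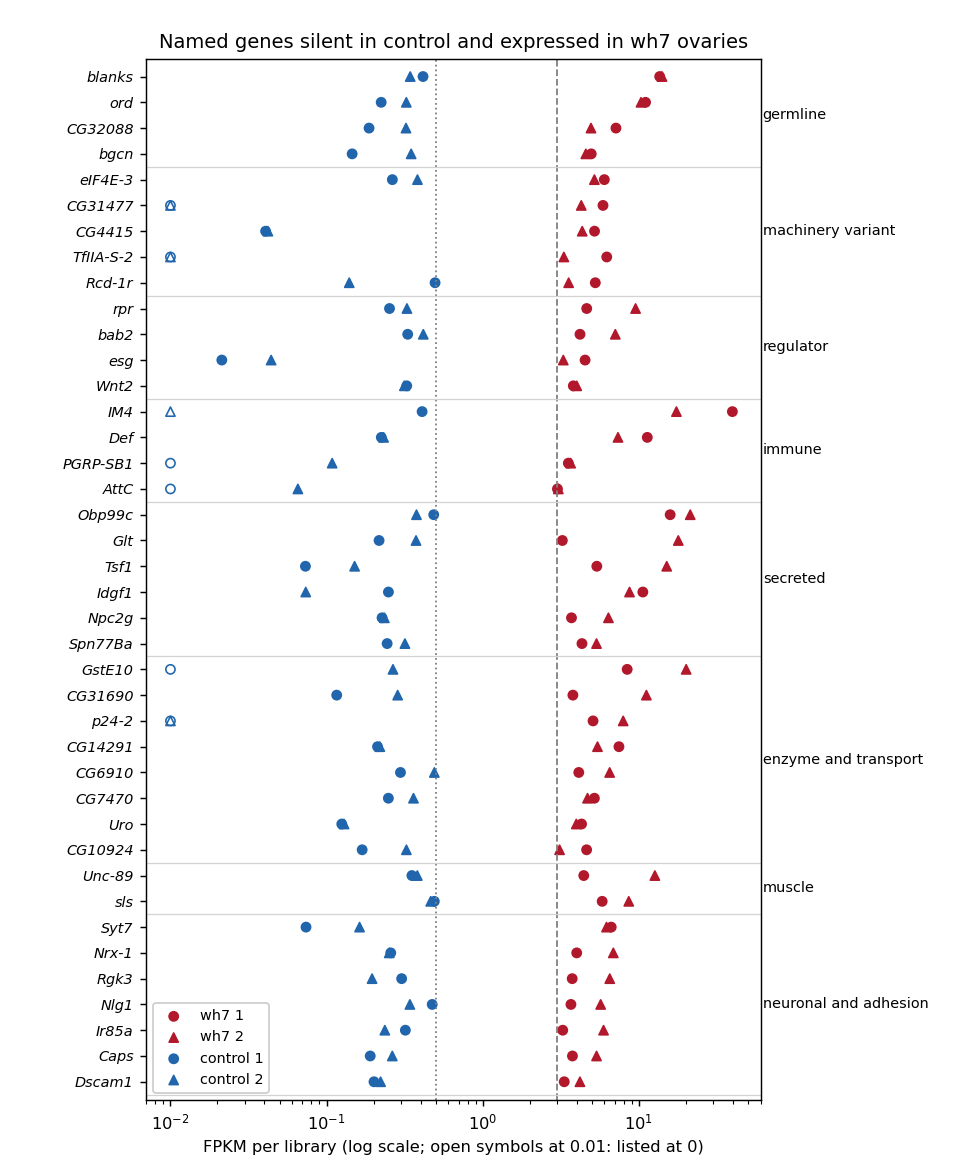
Level of the 40 genes with a role given here in each library (x axis, FPKM, log scale), grouped by role; red symbols are the wh7 libraries, blue symbols the controls, circles library 1 and triangles library 2, with open symbols at the left edge for values listed at 0. The dotted and dashed lines are the thresholds of 0.5 and 3 FPKM, and most wh7 values lie between 3 and 10 FPKM.

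Of the 78 genes, 40 could be given a role from general knowledge of the gene or of its family, 46 bear only a CG number in the table, and 10 of those have a name in the current annotation. The roles were assigned after the genes were known, to order the description.

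The first group, 4 genes with roles in the germline, was fairly even between the wh7 libraries. blanks, which encodes a protein that binds double-stranded RNA and is needed for sperm formation (3L:5497523-5498958, minus strand, BDGP6), stood at 13.6 and 14.0 FPKM in the wh7 libraries, against 0.414 and 0.343 FPKM in the controls. For ord, a gene of sister chromatid cohesion in meiosis, the levels were 11.02 and 10.3 FPKM in the wh7 libraries, against 0.224 and 0.324 FPKM in the controls. CG32088 is sisters unbound (sunn), which also acts in meiotic cohesion (3L:11728348-11732016, plus strand), and was at 7.12 and 4.93 FPKM in the wh7 libraries, against 0.187 and 0.322 FPKM in the controls. blanks and ord thus differed by little between wh7 1 and wh7 2, and CG32088 was lower in wh7 2. The fourth was bgcn, the partner of bam in turning a stem cell daughter towards differentiation, at 4.95 and 4.57 FPKM in the wh7 libraries, against 0.146 and 0.348 FPKM in the controls. Its partner bam itself was at 29.2 and 23.7 FPKM in the wh7 libraries, against 27.3 and 22.6 FPKM in the controls, and did not pass the test (log2 change 0.08 ± 0.16 SE, adjusted p = 0.709 by limma). The cohesin subunit SMC1 stood at 49.3 and 45.0 FPKM in the wh7 libraries, against 59.8 and 53.8 FPKM in the controls, and did not pass it either (adjusted p = 0.0918 by limma).

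Another 5 genes encode variants of general cell machinery, and all 5 were lower in wh7 2 than in wh7 1. eIF4E-3, a relative of the cap-binding translation factor that is known from the testis (3L:8229224-8230568, plus strand), had 5.999 and 5.18 FPKM in the wh7 libraries, against 0.264 and 0.382 FPKM in the controls. TfIIA-S-2, a copy of the small subunit of the transcription factor TFIIA (X:1011101-1011643, minus strand), had 6.22 and 3.30 FPKM in the wh7 libraries and was listed at 0 in both controls. CG4415, now named gNacalpha, a variant of the alpha subunit of the complex that binds nascent proteins at the ribosome (2L:1037246-1038685, plus strand), had 5.19 and 4.33 FPKM in the wh7 libraries, against 0.0407 and 0.0421 FPKM in the controls. In the controls CG4415 and TfIIA-S-2 lay below the medians of the 78 genes and eIF4E-3 above them. That order rests on few reads, about 5.5 and 7.6 in the controls for eIF4E-3, and could not be resolved. CG31477, an ATP synthase epsilon-like gene, had 5.88 and 4.27 FPKM in the wh7 libraries and was listed at 0 in both controls. Rcd-1r, a relative of the CCR4-NOT component Rcd-1, had 5.25 and 3.55 FPKM in the wh7 libraries, against 0.495 and 0.140 FPKM in the controls.

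The general forms of the same proteins were already abundant in control ovaries. eIF-4E stood at 779 and 789 FPKM in the wh7 libraries, against 906 and 880.4 FPKM in the controls (adjusted p = 0.160 by limma), and Nacalpha at 945 and 1007 FPKM in the wh7 libraries, against 942 and 1011 FPKM in the controls (adjusted p = 0.997 by limma). TfIIA-S was at 185 and 156 FPKM in the wh7 libraries, against 162 and 145 FPKM in the controls (adjusted p = 0.369 by limma). Rcd-1 was higher in wh7, at 144 and 140.1 FPKM, against 120.4 and 119 FPKM in the controls (log2 change 0.24 ± 0.07 SE, adjusted p = 0.0462 by limma), a call lost when any 1 library was left out (highest adjusted p = 0.199). The sources used here do not say how reads shared between such copies were assigned, so the levels of the variants are uncertain to that extent.

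Among regulators, 4 genes passed the rule. rpr (reaper), an activator of cell death that blocks the caspase inhibitor Diap1 (3L:18397535-18398435, minus strand), was at 4.63 and 9.51 FPKM in the wh7 libraries, against 0.253 and 0.327 FPKM in the controls. bab2, a BTB protein that shapes the terminal filaments of the ovary (3L:1140429-1177276, minus strand), was at 4.19 and 7.06 FPKM in the wh7 libraries, against 0.330 and 0.416 FPKM in the controls. Both were higher in wh7 2, by 2.06-fold for rpr. esg (escargot), a transcription factor of the Snail family known from stem and progenitor cells (2L:15333866-15336138, plus strand), was at 4.52 and 3.28 FPKM in the wh7 libraries, against 0.0213 and 0.0441 FPKM in the controls. Wnt2, a secreted Wnt ligand, was at 3.798 and 3.996 FPKM in the wh7 libraries, against 0.326 and 0.315 FPKM in the controls. The neighbour and relative of bab2, bab1, was at 1.11 and 1.01 FPKM in the wh7 libraries, against 0.328 and 0.295 FPKM in the controls (log2 change 0.65 ± 0.19 SE, adjusted p = 0.0489 by limma); without control 1 or without control 2 this call was lost, and it was lost with a replicate block, the highest adjusted p being 0.245.

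The immune group held 3 genes of antimicrobial or host defence peptides and 1 recognition protein. IM4, an immune-induced short peptide gene now named Dso1, was the second highest of the 78 genes, at 39.6 and 17.4 FPKM in the wh7 libraries, against 0.409 and 0 FPKM in the controls. Def, the insect defensin, was at 11.3 and 7.34 FPKM in the wh7 libraries, against 0.224 and 0.232 FPKM in the controls. PGRP-SB1, which binds bacterial peptidoglycan (3L:16727299-16727989, minus strand), was at 3.53 and 3.65 FPKM in the wh7 libraries, against 0 and 0.109 FPKM in the controls. IM4 and Def were higher in wh7 1, whereas PGRP-SB1 was almost level between the wh7 libraries. AttC, an attacin, was at 3.01 and 3.05 FPKM in the wh7 libraries, against 0 and 0.0655 FPKM in the controls, and is the gene nearest to the threshold of 3 FPKM. Metchnikowin (Mtk), an antifungal peptide, missed the rule narrowly, at 2.93 and 4.85 FPKM in the wh7 libraries and listed at 0 in both controls.

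Among other immune genes of the list, 12 of 16 tested were higher in wh7 and 0 lower, where 21.2% and 18.4% of all tested genes were. A gene silent in both controls is tested only if wh7 lifts it past the filter of 1 FPKM, so its direction is fixed. Without such genes 7 of 11 were higher and 0 lower, where 16.8% and 19.5% of all 8098 tested genes not silent in control were, and list counts from here on leave them out. Drs (drosomycin, an antifungal peptide) was at 80.9 and 17.8 FPKM in the wh7 libraries, against 0.477 and 0.986 FPKM in the controls (log2 change 4.52 ± 0.72 SE, adjusted p = 0.0140 by limma; 0.0784 without control 1). CG16712, matched to the list through an older name as an immune-induced peptide, was at 25.8 and 15.5 FPKM in the wh7 libraries, against 0 and 0.579 FPKM in the controls (log2 change 4.06 ± 0.35 SE, adjusted p = 0.00545 by limma). Summed over the 50 matched genes of the list the level was 367 and 274 FPKM in the wh7 libraries, against 74.4 and 73.7 FPKM in the controls. Of the list, 18 genes were at or below 0.5 FPKM in all 4 libraries.

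The 6 genes of secreted proteins included some of the widest gaps between the wh7 libraries. Obp99c, an odorant-binding protein (3R:29685736-29689311, minus strand), was at 15.8 and 21.3 FPKM in the wh7 libraries, against 0.485 and 0.376 FPKM in the controls. Glt (glutactin), a basement membrane glycoprotein (2L:8672698-8676804, plus strand), was at 3.23 and 17.9 FPKM in the wh7 libraries, against 0.217 and 0.374 FPKM in the controls. Tsf1, the iron carrier transferrin (X:18387084-18390344, plus strand), was at 5.37 and 15.1 FPKM in the wh7 libraries, against 0.0732 and 0.151 FPKM in the controls. wh7 2 exceeded wh7 1 by 5.53-fold for Glt, the widest gap in that direction among the 78 genes. Idgf1, a chitinase-like growth factor, was at 10.6 and 8.70 FPKM in the wh7 libraries, against 0.249 and 0.0735 FPKM in the controls. Its relative Idgf2 was already present in control, at 36.3 and 32.8 FPKM in the wh7 libraries, against 39.8 and 46.8 FPKM in the controls (adjusted p = 0.0948 by limma). The serpin Spn77Ba and the sterol-binding protein Npc2g had mean wh7 levels of 4.83 and 5.04 FPKM.

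The 8 enzymes and transport proteins came from unrelated pathways. GstE10, a glutathione transferase, was at 8.40 and 20.1 FPKM in the wh7 libraries, against 0 and 0.266 FPKM in the controls. The overlapping gene GstE1 had the opposite order between genotypes, at 25.5 and 70.3 FPKM in the wh7 libraries, against 104 and 108 FPKM in the controls, and did not pass the test (log2 change -1.30 ± 0.47 SE, adjusted p = 0.0853 by limma). Between the wh7 libraries GstE1 and GstE10 had the same order, both being higher in wh7 2. Uro, urate oxidase, a gene known for its restriction to the Malpighian tubule (2L:7780085-7781415, plus strand), was at 4.29 and 3.97 FPKM in the wh7 libraries, against 0.125 and 0.129 FPKM in the controls. Uro was thus even within each genotype, which GstE10 was not. CG14291, N-sulfoglucosamine sulfohydrolase (Sgsh), a lysosomal enzyme (3R:18911053-18912922, minus strand), was at 7.44 and 5.42 FPKM in the wh7 libraries, against 0.212 and 0.219 FPKM in the controls. CG7470, the first enzyme of proline synthesis from glutamate (P5CS), was at 5.18 and 4.68 FPKM in the wh7 libraries, against 0.249 and 0.360 FPKM in the controls. CG10924, a form of the gluconeogenic enzyme phosphoenolpyruvate carboxykinase (Pepck2), was at 4.62 and 3.10 FPKM in the wh7 libraries, against 0.169 and 0.324 FPKM in the controls. The remaining 3 were CG6910, myo-inositol oxygenase (Miox), CG31690, a transmembrane mannosyltransferase (Tmtc1), and p24-2, a cargo receptor of the secretory pathway. p24-2 was listed at 0 in both controls and stood at 5.08 and 7.92 FPKM in the wh7 libraries, while its relative eca was at 34.0 and 31.1 FPKM in the wh7 libraries, against 35.1 and 36.6 FPKM in the controls. The exons of p24-2 overlap those of Unc-115b on the same strand, so its level cannot be assigned to it alone.

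Both muscle genes encode giant proteins of the sarcomere. sls (sallimus), the fly titin (3L:2039681-2115611, minus strand), was at 5.81 and 8.60 FPKM in the wh7 libraries, against 0.489 and 0.464 FPKM in the controls. Unc-89, the fly obscurin, was at 4.43 and 12.6 FPKM in the wh7 libraries, against 0.352 and 0.381 FPKM in the controls. Both were higher in wh7 2. They did not stand alone, as 22 of the 24 other muscle genes tested, none of them silent in control, were higher in wh7 and 0 lower. Mhc, the muscle myosin heavy chain, was at 57.2 and 137 FPKM in the wh7 libraries, against 3.90 and 5.06 FPKM in the controls (log2 change 4.04 ± 0.43 SE, adjusted p = 0.00693 by limma). TpnC73F, a troponin C, was at 204 and 294 FPKM in the wh7 libraries, against 12.1 and 14.1 FPKM in the controls (log2 change 4.13 ± 0.20 SE, adjusted p = 0.00281 by limma). Summed over the 30 genes of the list the level was 1785 and 2922 FPKM in the wh7 libraries, against 316 and 358 FPKM in the controls. The flight muscle actin Act88F was at 0.0628 and 0.227 FPKM in the wh7 libraries, against 0.0317 and 0.0328 FPKM in the controls. Most of the muscle list was thus expressed in control ovaries, whose sheath is muscle, and sls and Unc-89 were members because their control levels lay under 0.5 FPKM. The part of muscle RNA in these levels was not tested.

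The 7 genes of neurons and cell adhesion had low and similar levels. Syt7, a calcium sensor of vesicle fusion (4:278685-306481, minus strand), was at 6.64 and 6.20 FPKM in the wh7 libraries, against 0.0738 and 0.163 FPKM in the controls. Nrx-1 (neurexin), a synaptic adhesion protein (3R:22468512-22486969, plus strand), was at 3.99 and 6.85 FPKM in the wh7 libraries, against 0.257 and 0.252 FPKM in the controls. Nlg1, a neuroligin and so of the family that binds neurexin (3R:7658247-7694874, plus strand), was at 3.67 and 5.69 FPKM in the wh7 libraries, against 0.474 and 0.341 FPKM in the controls. Caps, the vesicle priming factor Cadps (4:1230837-1271759, plus strand), the immunoglobulin adhesion protein Dscam1, the small GTPase Rgk3 and the ionotropic receptor Ir85a had mean wh7 levels of 4.55, 3.75, 5.12 and 4.59 FPKM. All but Syt7 were higher in wh7 2 than in wh7 1.

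Several genes that define neurons were under 1 FPKM in all 4 libraries. Synaptotagmin 1 (Syt1) was at 0.162 and 0.198 FPKM in the wh7 libraries, against 0 and 0.0121 FPKM in the controls. nSyb, the neuronal synaptobrevin, was at 0.624 and 0.697 FPKM in the wh7 libraries, against 0.0972 and 0.115 FPKM in the controls. VGlut, the vesicular glutamate transporter, was listed at 0 and 0.0171 FPKM in the wh7 libraries and at 0 in both controls. Syt1 and nSyb were above their controls in both wh7 libraries, but too low to be tested. elav, an RNA-binding protein used as a neuronal marker, was higher in wh7, at 6.14 and 6.63 FPKM, against 0.843 and 1.04 FPKM in the controls (log2 change 1.93 ± 0.17 SE, adjusted p = 0.00548 by limma). Of the 8 other neural genes tested, 5 were higher in wh7 and 0 lower, and 16 of the 37 on the list were at or below 0.5 FPKM in all 4 libraries. The summed level of the list was 81.7 and 113 FPKM in the wh7 libraries, against 47.5 and 50.4 FPKM in the controls.

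The remaining 38 genes, to which no role is given here, include the highest of all. CG42705 (X:7413869-7414662, plus strand) stood at 73.9 and 3.56 FPKM in the wh7 libraries, against 0.233 and 0 FPKM in the controls. Its wh7 libraries were further apart than those of any other of the 78 genes, and without wh7 1 its level would be near the threshold. CG31313 (3R:14566432-14567429, minus strand) was at 18.4 and 34.3 FPKM in the wh7 libraries, against 0.0997 and 0.413 FPKM in the controls. CG34331 (X:20122453-20125271, plus strand) was at 15.8 and 21.9 FPKM in the wh7 libraries, against 0.111 and 0 FPKM in the controls. CG9411 was at 12.6 and 16.3 FPKM in the wh7 libraries, against 0.203 and 0.341 FPKM in the controls. These 4 show both kinds of member, with CG42705 resting on wh7 1 and the other 3 high in both wh7 libraries. CG43074 was at 5.98 and 20.3 FPKM in the wh7 libraries, against 0.279 and 0 FPKM in the controls. CG14933, CG6409, CG32581 and CG7900 had mean wh7 levels of 12.4, 12.1, 12.0 and 11.5 FPKM, with both wh7 libraries of each above 10 FPKM.

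Replicate agreement in wh7 was poorer for the 78 genes than for other expressed genes. The wh7 libraries lay within 1.5-fold for 51 of the 78 genes (65.4%) and for 94.8% of the 7109 other protein-coding genes with at least 3 FPKM in both wh7 libraries. They lay over 2-fold apart for 10 of the 78 (12.8%) and for 1.38% of the others. Across genes, and genes are no independent replicates, the log2 levels of the wh7 libraries had a Pearson correlation of 0.494 over the 78 and of 0.977 over the others; the 78 span a narrower range of levels. Among genes with a mean wh7 level under 10 FPKM the shares were closer, as 4 of 62 of the 78 (6.45%) and 24 of 805 others (2.98%) lay over 2-fold apart.

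The gaps had a direction that differed between role groups. Of the 78 genes 48 were higher in wh7 2 (61.5%), against 49.6% of the 7109 others, but under 10 FPKM the shares were 59.7% and 58.9%. Of the 10 genes over 2-fold apart, 8 were higher in wh7 2 (Glt, CG43074, CG31690, Unc-89, Tsf1, GstE10, CG5399 and rpr) and 2 in wh7 1 (CG42705 and IM4). The median ratio of wh7 2 to wh7 1 was 0.929 for the germline genes, 0.726 for the machinery variants and 0.831 for the immune genes. It was 2.17 for the muscle genes, 1.55 for the neuronal and adhesion genes, 1.53 for the secreted proteins and 1.37 for the regulators. The groups are small and were formed with these values known, so the ratios are given as a description.

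**Figure D3:**
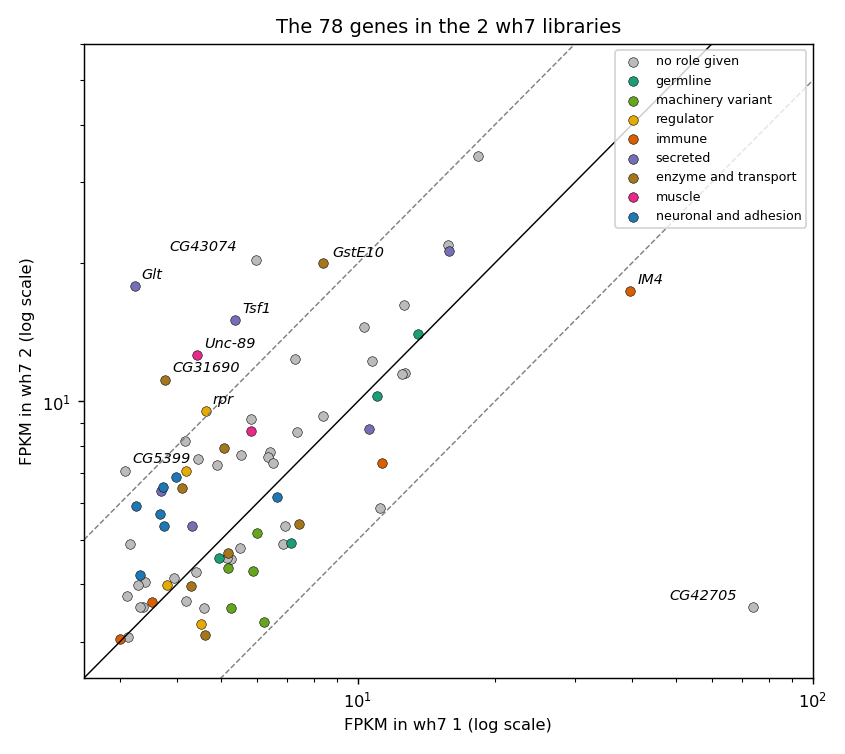
The 78 genes by their level in wh7 1 (x axis, FPKM, log scale) and in wh7 2 (y axis, FPKM, log scale), coloured by role; the solid line marks equal levels and the dashed lines a 2-fold difference. The 10 labelled genes lie outside the dashed lines, 8 above and 2 below (CG42705 and IM4).

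Leaving out 1 library changed how many genes the rule took, since 1 library then has to meet 1 threshold alone. Without wh7 1 the rule took 192 genes, without wh7 2 it took 111, without control 1 it took 91 and without control 2 it took 130. The genes next to the thresholds show how fine the division is. Just inside the control threshold lay Rcd-1r and CG17032 with 0.495 and 0.494 FPKM in their higher control, and just outside it lay qvr and CG6282 with 0.502 and 0.507 FPKM. qvr, at 4.15 and 12.3 FPKM in the wh7 libraries, thus missed the rule narrowly, by its level in control 1. Just inside the wh7 threshold lay AttC, CG30196 and CG5399 with 3.01, 3.08 and 3.08 FPKM in their lower wh7 library, and just outside it Sr-CI, a scavenger receptor, with 2.996 FPKM and CG13323 with 2.98 FPKM.

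Lists of markers for tissues and gene families place the 78 genes among their relatives. Of 31 lists, 9 held at least 1 of the 78 genes, and together they took in 14 of them. Over all genes the rule took 1.29% of those silent in both controls, and the lists held 4 to 117 such genes each. At that share a list would hold few of the 78 or none. The immune list held 4, the muscle list 2 and the list of follicle and niche genes 2 (Wnt2 and bab2), and 1 each came from fat body (Tsf1), neural (Caps), Malpighian tubule (Uro), ionotropic receptor (Ir85a), odorant-binding protein (Obp99c) and detoxification transferase (GstE10) lists. Over all lists 275 other genes not silent in control were tested, of which 154 were higher in wh7 (56.0%) and 14 lower (5.09%), where 16.8% and 19.5% of all tested genes not silent in control were. With control-silent genes kept, 194 of 319 were higher and 14 lower. Without control 1 the 154 higher calls became 64 and without wh7 2 they became 94, while after quantile normalization there were 109. The median log2 change of these 275 genes was 0.93, beside -0.07 over all tested genes not silent in control. The lists were drawn up with earlier results of these data known.

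Lists differed in how much of them was silent everywhere. Receptors of the sense organs were mostly silent, with 56 of 58 odorant receptors, 53 of 59 gustatory receptors and 50 of 60 ionotropic receptors at or below 0.5 FPKM in all 4 libraries. The same held for 103 of 122 cuticle genes, 34 of 39 gut genes, 41 of 46 seminal fluid genes and 40 of 57 homeobox genes. Of the genes silent in both controls, 56 of 57 odorant, 53 of 57 gustatory and 50 of 53 ionotropic receptors stayed so in wh7. So did 103 of 117 cuticle, 34 of 38 gut, 41 of 42 seminal fluid and 40 of 49 homeobox genes. Of all control-silent genes 78.6% did. Homeobox genes not silent in control moved, with 6 of 8 tested higher in wh7 and 1 lower. None of these lists except the ionotropic receptors held one of the 78. At the other end, 18 of 19 tested basement membrane and matrix genes (with 0 lower) and 8 of 10 tested blood cell genes (with 1 lower) were higher in wh7. Pxn and Cg25C are on both lists and count as higher in each. Neither list held one of the 78, but only 4 matrix genes and 10 blood cell genes were silent in both controls. Glt, described above as a basement membrane glycoprotein, is one of the 78 but was not on the matrix list. For the matrix gene Ppn (papilin), the levels were 50.0 and 106 FPKM in the wh7 libraries, against 3.52 and 4.38 FPKM in the controls (log2 change 3.91 ± 0.38 SE, adjusted p = 0.00592 by limma). Hemolectin (Hml), a blood cell marker, was at 2.90 and 2.09 FPKM in the wh7 libraries, against 0.0994 and 0.0673 FPKM in the controls, and so lay under the wh7 threshold.

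Follicle and niche genes moved widely, with 15 of 21 tested genes beside Wnt2 and bab2 higher in wh7 and 0 lower. cas (castor), a zinc finger factor of early follicle cells, was at 15.1 and 15.1 FPKM in the wh7 libraries, against 0.848 and 1.08 FPKM in the controls (log2 change 3.04 ± 0.16 SE, adjusted p = 0.00281 by limma). Fas3, an adhesion protein of early follicle and polar cells, was at 97.1 and 127 FPKM in the wh7 libraries, against 12.9 and 20.3 FPKM in the controls (log2 change 2.70 ± 0.25 SE, adjusted p = 0.00568 by limma). The fat body list, which holds Tsf1, had 4 of 11 other tested genes higher and 0 lower. Its larval storage proteins differed in level. Lsp1alpha was at 0.0541 and 0.0560 FPKM in the wh7 libraries and listed at 0 in both controls. Lsp1beta was at 0.964 and 0.489 FPKM in the wh7 libraries, against 0 and 0.0190 FPKM in the controls. For Lsp1gamma the levels were 0.361 and 0.315 FPKM in the wh7 libraries, against 0.192 and 0.179 FPKM in the controls. Lsp2 was at 0.749 and 4.99 FPKM in the wh7 libraries, against 0.0210 and 0.0652 FPKM in the controls.

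Some of the 78 genes, such as blanks and eIF4E-3, are known from the male germline, and genes of the testis list went both ways. Of the 8 tested, 2 were higher in wh7 (25.0%) and 1 lower (12.5%), where 16.8% and 19.5% of all tested genes not silent in control were, and 14 of the 32 on the list were at or below 0.5 FPKM in all 4 libraries. Taf12L, a testis form of a transcription factor subunit, was at 5.62 and 4.30 FPKM in the wh7 libraries, against 1.25 and 0.939 FPKM in the controls (log2 change 1.504 ± 0.21 SE, adjusted p = 0.0104 by limma), a call lost after quantile normalization (adjusted p = 0.303) and without either control. mia, another such form, was at 4.94 and 5.67 FPKM in the wh7 libraries, against 1.84 and 2.497 FPKM in the controls (log2 change 0.999 ± 0.19 SE, adjusted p = 0.0206 by limma), a call lost when any 1 library was left out, with no filter, and after quantile normalization, where the change turned round (-0.042). sa, of the same kind, was at 1.80 and 1.50012 FPKM in the wh7 libraries and listed at 0 in both controls. sa passed the test too (adjusted p = 0.0104 by limma; 0.0904 without control 1 and 0.0665 without control 2), but it is silent in control and so not among the 2 counted. The lower call was twe, a phosphatase of the meiotic divisions, at 62.3 and 44.1 FPKM in the wh7 libraries, against 105 and 86.5 FPKM in the controls (log2 change -0.85 ± 0.20 SE, adjusted p = 0.0304 by limma), and this call was lost with no filter, without wh7 2 and without either control (highest adjusted p = 0.146). Late sperm genes were low but not alike. In the wh7 libraries dj was at 0.141 and 0 FPKM, Mst87F at 0.716 and 0.556 FPKM and ocn at 1.68 and 0.434 FPKM. Each of these was listed at 0 in both controls, and Mst35Ba was listed at 0 in every library. Of the 23 list genes silent in both controls, 9 passed 0.5 FPKM in a wh7 library and 14 did not. Of all control-silent genes 78.6% did not.

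**Figure D4:**
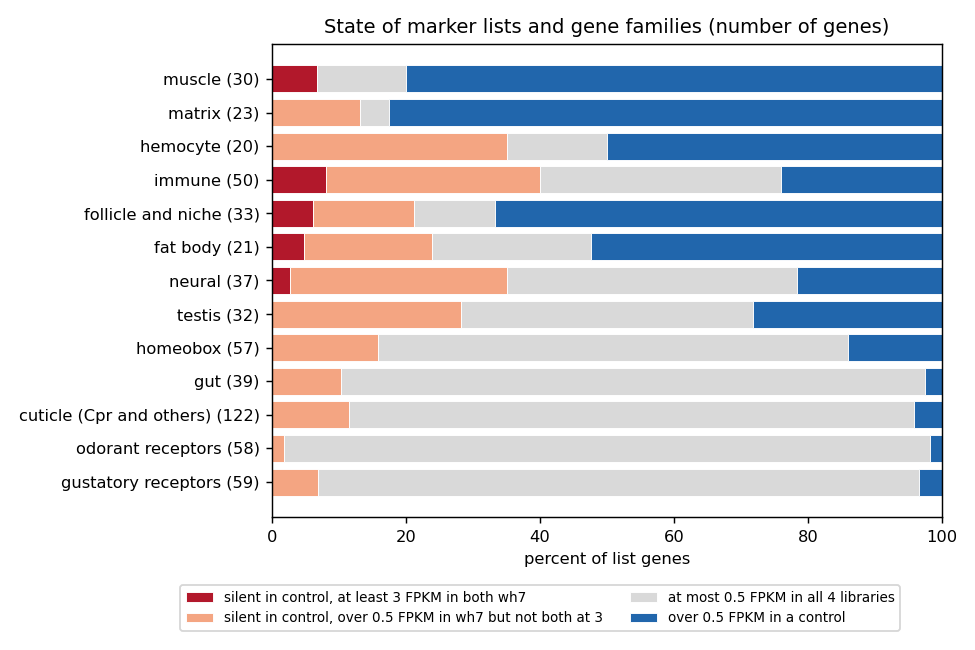
Share of each marker list or gene family (x axis, percent; number of genes in brackets) by its state in the 4 libraries; red, silent in control and at least 3 FPKM in both wh7 libraries; orange, silent in control and over 0.5 FPKM in a wh7 library; grey, at most 0.5 FPKM in all 4 libraries; blue, over 0.5 FPKM in a control. Red is limited to 5 of the 13 lists drawn, and grey fills most of the receptor, cuticle, gut and homeobox bars.

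The position of the 78 genes in the genome was not used by the rule. All 78 were found in the BDGP6 annotation. They were spread over the X chromosome (12), 2L (12), 2R (18), 3L (17), 3R (17) and the fourth chromosome (2, Syt7 and Caps), with 0 on the Y. On the fourth chromosome lay 2.56% of the 78 genes, 0.313% of control-silent genes and 0.571% of all protein-coding genes, which is a matter of 2 genes. Only 1 pair lay within 50000 bases of each other, AttC and CG18278, which are 7643 bases apart on 2R. How many such pairs other genes would give was not tested.

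In structure they lay between other silent genes and expressed genes. The median length of the longest transcript was 1516 bases for the 78 genes, 1286 for the other control-silent genes and 2055 for the other tested genes. A single exon made up 12.8% of the 78 genes (10 genes), 24.3% of other control-silent genes and 8.48% of other tested genes. Within an intron of another gene lay 8 of the 78 (10.3%), 17.1% of other control-silent genes and 3.95% of other tested genes. Short genes carry fewer reads at a given FPKM, and 22 of the 78 (28.2%) had no transcript of 1 kb, against 36.6% of other control-silent genes.

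Exons of 13 of the 78 genes (16.7%) overlap those of another protein-coding gene, 10 of them on the opposite strand. The same held for 15.3% of other control-silent genes and 37.8% of other tested genes. The library kit keeps the strand, but the sources used here do not say whether counting used it, so the reads of such pairs cannot be told apart. Ir85a shares 232 exon bases with Pif1A on the opposite strand, and Pif1A was at 21.4 and 37.4 FPKM in the wh7 libraries, against 1.64 and 1.75 FPKM in the controls (log2 change 3.44, adjusted p = 0.00531 by limma). The levels of Ir85a, the only receptor of its family among the 78, shared with those of Pif1A that wh7 2 was above wh7 1 and both above the controls, and the part of Pif1A in them was not tested. CG14933 shares 876 exon bases on the same strand with CG42486, which was listed at 0 in every library. CG14933 also lies in an intron of Pde1c on the opposite strand, which was at 4.10 and 7.31 FPKM in the wh7 libraries, against 0.486 and 0.514 FPKM in the controls (log2 change 2.12, adjusted p = 0.00993 by limma). p24-2 shares 3535 exon bases on the same strand with Unc-115b, at 0.208 and 0.352 FPKM in the wh7 libraries and listed at 0 in both controls. That is as many bases as the longest transcript of p24-2 holds. Strand cannot separate this pair, so the level given for p24-2 cannot be assigned to it alone. CG43373 shares 934 bases on the same strand with CG42514, which was well expressed in both genotypes, at 23.1 and 27.0 FPKM in the wh7 libraries, against 31.3 and 32.3 FPKM in the controls.

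Genes next to the 78 were also examined, taking on each side the protein-coding gene whose deposited locus had the nearest midpoint. Genes merged into one locus with one of the 78, such as GstE1, Pif1A and Unc-115b, are passed over by this rule. Of 155 such neighbours that are not themselves among the 78, 76 could be tested, and 30 were higher in wh7 (39.5%) and 8 lower (10.5%), where 21.2% and 18.4% of all tested genes were. The filter on low values favours a silent gene only when it is on in wh7, so the count was repeated without neighbours silent in both controls, giving 20 of 65 higher (30.8%) and 8 lower (12.3%). For neighbours of the other control-silent genes, chosen in the same way, 21.7% of 2955 were higher and 18.8% lower. Without control 1 the 30 higher calls became 8, without control 2 they became 15 and without wh7 2 they became 18, while after quantile normalization there were 19.

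The neighbours named next were chosen after their values were seen. CG13540, beside ord, was at 19.2 and 19.8 FPKM in the wh7 libraries, against 0.271 and 0.560 FPKM in the controls, and missed the rule by its control 2 value (log2 change 3.86 ± 0.18 SE, adjusted p = 0.00281 by limma). gbb, a BMP ligand beside bgcn, was at 23.1 and 27.0 FPKM in the wh7 libraries, against 4.67 and 7.11 FPKM in the controls (log2 change 1.94 ± 0.22 SE, adjusted p = 0.00753 by limma). Xrp1, a stress-response transcription factor beside CG14291, was at 137 and 245 FPKM in the wh7 libraries, against 22.8 and 22.3 FPKM in the controls (log2 change 2.97 ± 0.28 SE, adjusted p = 0.00586 by limma). Some neighbours are relatives of the gene beside them. Of these zormin beside sls, IM14 beside IM4, Npc2h beside Npc2g, Idgf3 beside Idgf1 and bab1 beside bab2 were called higher, and each of these calls was lost when some 1 library was left out. zormin lost its call without control 1 (adjusted p = 0.0559 by limma), IM14, Npc2h and bab1 without control 1 and also without control 2, and Idgf3 without control 1, without wh7 1 and without wh7 2. After quantile normalization the calls of Npc2h and Idgf3 were lost too. eca beside p24-2 was not called (adjusted p = 0.303 by limma), and PGRP-SB2 beside PGRP-SB1, grim and skl beside rpr, Spn77Bb beside Spn77Ba and GstE2 beside GstE10 were too low to be tested.

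**Figure D5:**
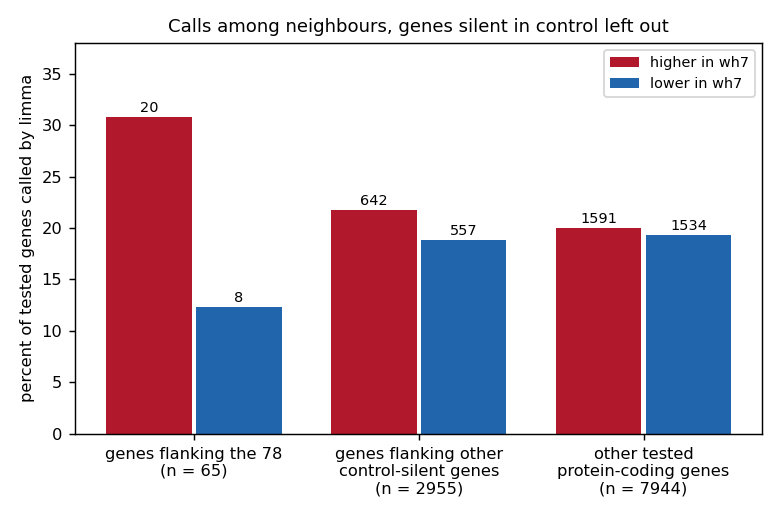
Percent of tested genes that limma called higher (red) or lower (blue) in wh7 (y axis) among genes flanking the 78, genes flanking other control-silent genes and other tested protein-coding genes, with genes silent in both controls left out of both flanking groups; numbers above bars count the genes. Of the 65 genes flanking the 78, 20 were higher and 8 lower.

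The authors' deposited table gives its own significance mark for each gene. It marked 47 of the 78 genes significant (60.3%), where it marked 8.78% of all protein-coding genes significant and higher in wh7; both the mark and the rule use the same libraries. In the authors' deposited table the mark was given to 42 of 58 genes above 0 in both controls, to 0 of 15 listed at 0 in one control, and to 5 of 5 listed at 0 in both. CG42705 and IM4, the highest of the 78 genes, were not marked (q = 0.578 and q = 0.603 in the authors' deposited table), and neither was CG34331 (q = 0.587). Genes whose locus in the authors' deposited table is merged with that of another protein-coding gene were marked in 7 of 23 cases, and genes with a locus of their own in 40 of 55. Both counts include genes listed at 0 in one control, such as GstE10 in a merged locus. Among genes with their own locus and no control at 0, 36 of 42 were marked. Merged loci held 29.5% of the 78 genes and 41.0% of all protein-coding genes, and the marked share of all genes by kind of locus was not counted. bgcn (q = 0.248) and Def (q = 0.796 in the authors' deposited table) each lie in a merged locus, not the same one, whereas ord and blanks, both with q = 8.70e-04, do not.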

How the data were processed

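The authors deposited FPKM values per library for 17475 genes, per the file headers, with 0.0001 standing for 0; here such values are called listed at 0. The deposited table also holds the authors' FPKM per genotype, the ratio between genotypes as it is and as log2, a q-value and a p-value, per the file headers; the sources used here do not name the test behind them. RNA was sequenced as single-end reads of 75 bases from a strand-specific kit, per the labels' protocols. The tools bcl2fastq 2.0 and Bowtie 0.12.2 are named in the submitters' processing notes, with no role. Genotypes were taken from the source names, since the description fields name an experiment on tkv, whose level did not pass the test (adjusted p = 0.0898 by limma).

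FPKM are not counts, so all genes with at least 1 FPKM in 2 libraries were fitted with limma 3.58.1 (R 4.3.3) on log2(FPKM + 1), with a trended prior and Benjamini-Hochberg adjustment over 8580 genes at 0.05. Log2 changes are on that scale and understate those of low genes. The 78 genes all passed the filter because of the rule itself, and no result is drawn from their fit. Exon positions came from a BDGP6 annotation, in which 17293 genes (99.0%) were found, 70.1% of them with the same start. Of the list symbols, 6 were not matched.

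The 78 genes, the marker lists and the role groups were chosen with earlier results of these data known. Genes named are the 15 with the highest mean wh7 level, up to 4 per role group, those on a list, those nearest the thresholds, and up to 3 called genes per list with the largest change, of which some are shown. Alternatives tried were other thresholds, pseudocounts, filters, scalings, a replicate block and leaving out each library. Depth was estimated from the steps between low values, of which 87.2% to 91.8% lay within 0.2 of a whole read. All per-library columns were used.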

Additional observations from a re-analysis of the deposited data

How the results depend on the processing

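The number of genes taken by the rule followed its thresholds: 34 with a control limit of 0.25 FPKM, 175 with 1 FPKM, 175 with a wh7 minimum of 2 FPKM, 31 with 5 FPKM, 11 after quantile normalization, and 91 to 192 with 1 library left out. Under median ratio scaling the rule took 97 genes. The reversed rule took 3 genes with a minimum of 5 FPKM, 5 under median ratio scaling, 11 after quantile normalization, and 5 to 13 with 1 library left out. Over all genes the calls numbered 611 to 2002 with 1 library left out, the higher calls 551 to 1397 and the lower calls 60 to 605. Higher calls numbered 1087 with a filter at 5 FPKM and 1154 after quantile normalization; lower calls numbered 967 with no filter and 842 under median ratio scaling, where the median log2 change of all genes lay 0.10 higher. Among list genes there were 208 calls, 168 without genes silent in both controls, an alternative chosen after seeing the data, 129 calls with a filter at 5 FPKM and 64 to 178 with 1 library left out. Of these, the higher calls were 117 with that filter, 117 after quantile normalization and 64 to 169 with 1 library left out, and the lower calls were 25 after quantile normalization and 0 to 9 with 1 library left out. Among neighbours there were 9 to 30 calls with 1 library left out. Of these, the higher calls were 19 with a filter at 5 FPKM, 19 after quantile normalization and 8 to 26 with 1 library left out, and the lower calls were 3 with no filter, 3 after median ratio scaling and 0 to 4 with 1 library left out. The cause was not tested; leaving out a library also leaves fewer samples, and the lone library is then assumed to vary like the other genotype's. The source names carry no replicate numbers and nothing pairs the libraries: the deviations of libraries of the same number correlated at -0.16. With a replicate block 3624 genes were called (1875 higher, 1749 lower). With the numbers crossed, an alternative chosen after seeing the data, 2729 were called (1655 higher, 1074 lower), 4 of them lower neighbours. The log2 change turned round after quantile normalization for GluRIIE (-0.10), Octbeta2R (-0.26), mia (-0.042), Ir62a (-0.24) and ppk28 (-0.20). It turned round for Nacalpha under median ratio scaling (0.11), and with 1 library left out it ran from -0.052 to 0.050 for Nacalpha, from -0.043 to 0.15 for sun and from -0.066 to 0.23 for bam. No reversed value passed the test. With 2 libraries per genotype and about 20.0 reads per FPKM and kb, differences between levels under 0.5 FPKM could not be resolved in transcripts near 1 kb. Longer transcripts hold more reads at the same FPKM.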
